A study of Mus musculus with 14 samples.

Results

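The genes examined were 10 genes of the melanocyte, the pigment cell, in the aortic valve leaflets of mice. They were taken by name from the deposited count table, in which Ensembl genes were matched to GENCODE symbols: 8 effector genes of pigment production (Dct, Tyr, Tyrp1, Pmel, Mlana, Slc45a2, Oca2 and Slc24a5) and 2 transcription factors (Mitf and Sox10). All 10 of the 10 were among the 19145 of 56941 genes kept for testing, which averaged 10 counts or more. Bulk RNA-seq of the leaflets had given 14 libraries, each taken here as 1 mouse. It was carried out to ask how angiotensin II (AngII) remodels the valve and whether an antagonist of the serotonin receptor HTR2B, LY272015 (LY), alters this. The methods describe more dissected hearts per group for sequencing than there are libraries. There were 4 untreated mice (Ctrl), 2 mice given LY alone, 4 AngII mice and 4 mice given both (AngII+LY). All were wild type C57BL/6J males (C57BL/6 in the labels), aged 8 weeks at the start and on a Western diet, so that the Ctrl valves also came from animals on this diet. AngII ran from osmotic pumps at 1000 ng/kg/min for 28 days, and LY was injected at 3 mg/kg. The deposited design places AngII and AngII+LY valves 48 hours after pump removal, whereas the methods describe removal for a subset of mice. The leaflets were dissected from the heart, and heart muscle markers were abundant in every library (256920 to 2091206 summed normalized counts). Library totals ran from 20990655 (AngII 4) to 73128220 counts (AngII 2).

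Melanocytes are neural crest cells, and in pigmented mice they are found inside the heart, in valves and septa, as well as in skin and hair. They make melanin in a specialised organelle, the melanosome. Tyrosinase (Tyr) oxidises tyrosine in the first and limiting step, dopachrome tautomerase (Dct) and the tyrosinase-related protein Tyrp1 act on later intermediates, Pmel forms the fibrils on which the pigment is laid down, and Mlana is a melanosomal membrane protein needed for Pmel to mature. Oca2, Slc45a2 and Slc24a5 encode melanosomal membrane transporters that set the ionic conditions for the enzymes. Mitf is the basic helix-loop-helix leucine zipper factor of the lineage and binds E-box sequences in the promoters of these genes, and Sox10, a neural crest factor, acts upstream of Mitf and on Dct itself. Mitf is also expressed in macrophages, mast cells and heart muscle, and Sox10 in Schwann cells.

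The E-box CATGTG is a form that Mitf is known to bind in pigment genes, so the stretches that hold it are shown here with the E-box in capitals. They were read from the RefSeq table of promoters on GRCm38.p6 (250 bases before and 50 after each start), which matched 6 of the 10 genes and 5 of the 8 effectors. Pmel, Mlana, Slc45a2 and Sox10 were not matched. Each is written 5′ to 3′ on the strand of its gene, and only bases before the start are printed.
Dct: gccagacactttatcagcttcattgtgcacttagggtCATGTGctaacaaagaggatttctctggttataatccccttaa
Tyr: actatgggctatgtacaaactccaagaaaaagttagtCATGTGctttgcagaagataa
Tyrp1: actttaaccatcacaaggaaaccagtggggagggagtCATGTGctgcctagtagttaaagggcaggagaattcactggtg
Oca2: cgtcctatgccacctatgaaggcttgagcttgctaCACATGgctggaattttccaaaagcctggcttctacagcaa
Slc24a5: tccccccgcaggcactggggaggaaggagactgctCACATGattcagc

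The Dct stretch is chr14:118052354-118052433 on the minus strand and the E-box shown begins 150 bases before the start. A second match in the Dct promoter, on the other strand, begins 232 bases before it and is not printed. In Tyr (chr7:87493513-87493570, minus strand) the E-box begins 21 bases before the start and in Tyrp1 (chr4:80834130-80834209, plus strand) 46 bases before it. In Oca2 (chr7:56239538-56239613, plus strand) and Slc24a5 (chr2:125068079-125068126, plus strand) the letters lie on the other strand and read CACATG, 186 and 13 bases before the start. CATGTG on either strand was present in all 5 effector promoters of the table, against 14.2% of all 32851 promoters. The longest run around it that Dct, Tyr and Tyrp1 share was GTCATGTGCT, which stood in 0.186% of all promoters (61 promoters). Tyr and Tyrp1 share AGTCATGTGCT, the M-box, which stood in 7 promoters overall. Both runs contain CATGTG, and both were searched for on either strand. The 3 Mitf promoters of the table held none of these letters. ACAAAG, the core letters bound by SOX factors, also stood in the promoters of Dct, Tyrp1 and Oca2, against 18.7% of all promoters. These are matches of letters in a fixed window, and binding was not measured.

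The effectors were counted in every mouse, at levels that differed far more between mice than between groups. Summed over the 8 genes, the counts-per-million level (CPM) was 457.6 in Ctrl 1, 66.0 in Ctrl 2, 13.6 in Ctrl 3 and 22.5 in Ctrl 4. The LY mice had 65.4 and 146, and the AngII mice 6.76, 213, 23.2 and 11.4. The AngII+LY mice had 13.6, 35.4, 21.9 and 89.4. Ctrl 1, the highest valve, thus stood 67.7 times above the lowest, AngII 1, and 1 high mouse was seen in each group of 4 with all groups overlapping. Counting error is small beside this: the 95% Wilson interval was 452 to 463 in Ctrl 1 and 6.09 to 7.51 in AngII 1. Medians of the summed normalized counts (raw counts scaled by each library's TMM-adjusted size, where the mean library has a scale of 1) were 2280 for the Ctrl valves, 5415 for LY, 1169 for AngII and 1593 for AngII+LY. The means followed single mice. The Ctrl mean was 6744 ± 10073 (SD, n = 4) and fell to 1745 without Ctrl 1, and the AngII mean was 3331 ± 4890 (SD, n = 4) and 898.7 without AngII 2. The AngII+LY mean was 2363 ± 2064 (SD, n = 4), and 1352 without AngII+LY 4. In leaflets sequenced in bulk, fewer melanocytes and less RNA in each cannot be told apart.

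**Figure D1:**
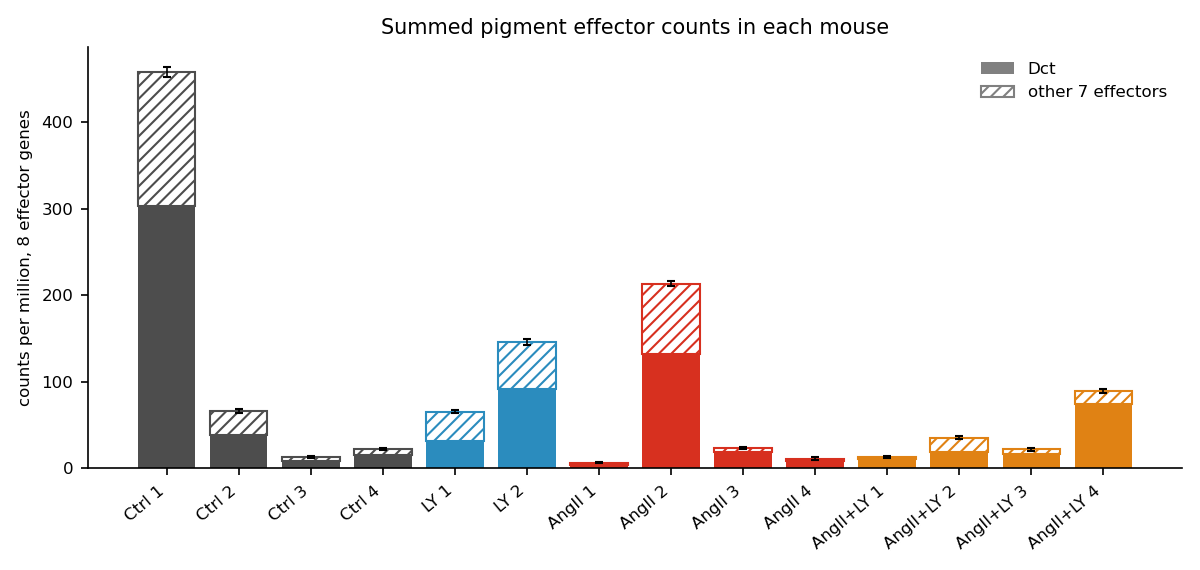
Summed CPM of the 8 effector genes (y axis) in each of the 14 mice (x axis), divided into Dct (solid) and the other 7 genes (hatched); black bars are 95% Wilson intervals. Ctrl 1 (457.6) and AngII 2 (213) stand above the rest, and every group of 4 holds valves at 23.2 or less.

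Among the enzymes Dct had the most counts in all 14 mice, with 48.4 to 83.6% of the effector counts. Dct (chromosome 14, 118250202 to 118289656 on GRCm39, minus strand) had 14384, 1986, 428 and 771 normalized counts in Ctrl valves, 1636 and 4692 in LY valves, 215, 6582, 1277 and 602 in AngII valves, and 718, 1019, 1011 and 4511 in AngII+LY valves. A single valve in each group of 4 was thus at least 3 times above the next. Tyr (chromosome 7, 87073979 to 87142720, minus strand), the limiting enzyme, was near the limit of detection in several valves. It had 396, 35.8, 30.3 and 61.7 in Ctrl valves, 142 and 96.2 in LY valves, 0, 303, 173 and 0 in AngII valves, and 0, 47.3, 0 and 74.7 in AngII+LY valves. Tyr was thus counted in all 6 mice without AngII and listed at 0 in 4 of the 8 mice that received it. In these 4 libraries, 3 counts would correspond to between 3.1 and 9.93 normalized counts. Tyrp1 (chromosome 4, 80752360 to 80769956, plus strand) had 1704, 155, 11.9 and 83.2 in Ctrl valves, 729 and 745 in LY valves, 43.4, 910, 0 and 52.9 in AngII valves, and 33.0, 257, 0 and 132 in AngII+LY valves. The 2 LY mice were close to each other for Tyrp1 and fell inside the Ctrl range.

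AngII 3 stood out among the valves for an uneven set of enzymes. It had 1277 counts of Dct and 173 of Tyr, the second highest value of its group for both, while Tyrp1 was listed at 0 and Pmel and Slc24a5 had 7.21 each. AngII+LY 3 likewise had 1011 of Dct and 147 of Mlana with Tyr and Tyrp1 at 0. In AngII+LY 1, 3 and 4, Dct took 82.5, 76.9 and 83.6% of the effector counts, against 57.7 to 68.8% in Ctrl mice, and in AngII+LY 2 it took 54.5%. The range in AngII mice, 60.1 to 82.7%, overlapped both.

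The structural proteins followed the same mice. Pmel (chromosome 10, 128540064 to 128556107, plus strand) had 2649.7, 487, 74.6 and 87.5 normalized counts in Ctrl and 490.2 and 1082 in LY. It had 50.7, 1130.0, 7.21 and 79.4 in AngII and 28.8, 208, 46.1 and 248 in AngII+LY mice. Exons of Pmel share 442 bases with Dgka and 34 with Cdk2 on the opposite strand, and whether strand was used in counting is not given in the sources used here. Mlana (chromosome 19, 29674900 to 29686034, plus strand) had 2106, 693, 75.6 and 56.0 in Ctrl valves, 254 and 648 in LY valves, 12.4, 1274, 43.3 and 13.2 in AngII valves, and 53.5, 247, 147 and 360.1 in AngII+LY valves. In 3 of the 4 AngII mice Mlana was below every mouse of the other groups, and in AngII 2 it was the second highest of the 14.

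The transporters had few counts in most valves. Slc45a2 (chromosome 15, 11000803 to 11029319, plus strand) had 299, 30.0, 18.4 and 23.0 in Ctrl valves, 15.3 and 101 in LY valves, 0, 238, 36.1 and 0 in AngII valves, and 0, 23.7, 40.3 and 24.9 in AngII+LY valves. Oca2 (chromosome 7, 55889191 to 56186280, plus strand) was counted in 5 of the 14 valves, with 56.4 and 6.66 in Ctrl 1 and 2, 4.6 and 7.0 in the LY mice and 56.5 in AngII 2. It was listed at 0 in all 4 AngII+LY mice. Against a floor of 3 counts over the group, Oca2 was at least 25.7-fold lower in AngII+LY than in pooled AngII mice, a difference that rests on the 83 counts of AngII 2, and at least 17.2-fold lower than in pooled Ctrl mice, of which Ctrl 1 held 65 counts and Ctrl 2 the other 8. Without Ctrl 1 this bound was 2.51-fold. Slc24a5 (chromosome 2, 124909836 to 124930597, plus strand) was the steadiest effector, with 148, 45.8, 34.6 and 38.8 in Ctrl valves, 111 and 75.2 in LY valves, 36.2, 136, 7.21 and 46.3 in AngII valves, and 37.1, 68.7, 70.5 and 46.0 in AngII+LY valves. Its exons share 1698 bases with Myef2 on the opposite strand, the longest overlap of the 10 genes, so that its counts are uncertain.

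The 2 factors behaved differently from each other. Mitf (chromosome 6, 97783950 to 97998323, plus strand) was even across the valves, with 708, 645, 597 and 485 in Ctrl valves, 629 and 570 in LY valves, 492, 519, 1152 and 751 in AngII valves, and 726, 874, 628 and 1096 in AngII+LY valves. The highest and the lowest of the 14 were 2.38-fold apart, against 66.9-fold for Dct and 368-fold for Pmel, and Ctrl 1 was not set apart from the other mice. Sox10 (chromosome 15, 79039108 to 79049469, minus strand) had 367, 270, 25.9 and 27.3 in Ctrl valves, 76.7 and 56.0 in LY valves, 0, 104, 57.7 and 46.3 in AngII valves, and 93.4, 97.1, 20.2 and 308 in AngII+LY valves. It was high in Ctrl 1, Ctrl 2 and AngII+LY 4.

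**Figure D2:**
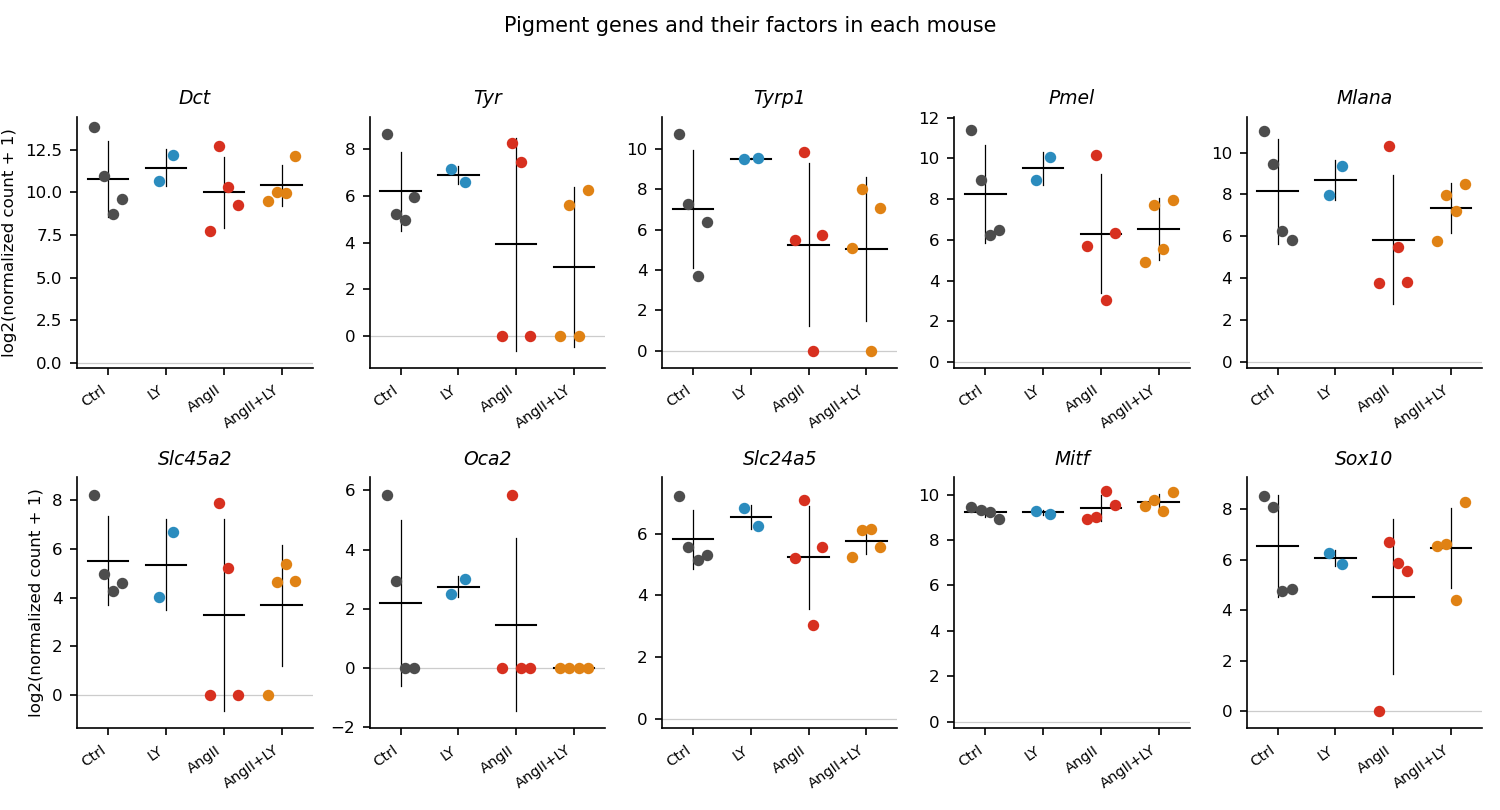
Log2(normalized count + 1) of the 8 effectors and the 2 factors (y axis, one panel a gene) in each mouse, by group (x axis); horizontal bars are means and vertical bars 1 SD. In most effector panels 1 Ctrl and 1 AngII mouse stand above the rest, Oca2 is at 0 in all AngII+LY mice, and Mitf is nearly level.

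The coefficient of variation over the 14 valves was 135% for Dct, 153% for Pmel, 215% for Oca2, 105% for Sox10, 63.8% for Slc24a5 and 29.4% for Mitf. The median of all genes tested was 41.2%. Groups accounted for 8.52% (Dct) to 27.9% (Pmel) of the sum of squares of the log2 values among the 10 genes, below the median of all genes tested (32.9%) in every one. Levels between genes were compared per length, as CPM divided by the kilobases of exon. By the median over the 14 valves the order was Dct (3.51), Mlana (3.03), Pmel (1.16), Mitf (1.13), Tyrp1 (0.686), Sox10 (0.363), Slc45a2 (0.146), Slc24a5 (0.143) and Tyr (0.138), with Oca2 at 0. Means were 8.70 ± 11.7 for Dct, 6.58 ± 9.25 for Mlana, 3.75 ± 5.73 for Pmel, 2.21 ± 3.19 for Tyrp1 and 1.25 ± 0.37 for Mitf (SD, n = 14). Neighbours in this order were closer together than the larger of their SDs, as were Slc45a2, Tyr and Slc24a5. These SDs are between mice, and all genes were measured in the same mice. They do not show whether 2 genes differ within a mouse, which was not tested.

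AngII infusion was compared with untreated valves to ask what AngII changed. None of the 10 genes was called (edgeR quasi-likelihood test over all 19145 genes, Benjamini-Hochberg adjusted p under 0.05 and absolute log2 fold change above 0.5), where 2.9% of all genes tested were called, a count of 555 that ran from 0 to 2663 over the alternatives. At an unadjusted p under 0.05 the count was also 0 of 10, against 27.6% of all genes, and DESeq2 called 0 of 10. A list of the effectors with the pigment-cell genes Gpr143 and Trpm1 also had 0 of 10 at that unadjusted p. Without AngII 2 this list had 5 lower and 0 higher of 9 tested (smallest edgeR adjusted p = 0.0514). Of the 8 effectors 2 (Tyr and Oca2, both below 0 in DESeq2) had an estimate above 0 and 6 below, with a median log2 fold change of -0.42, beside -0.05 over all genes tested. The median of the list with Gpr143 and Trpm1 was -0.53, and it was 1.03 without Ctrl 1 and -2.69 without AngII 2. Dct was 2169 ± 2974 in AngII and 4392 ± 6695 in Ctrl mice (SD, n = 4 each), an estimate of -0.99 on the log2 scale (standard error 1.06, edgeR adjusted p = 0.567). Without Ctrl 1 the Dct estimate was 1.06, and without AngII 2 it was -2.65. For Sox10, with 51.9 ± 42.5 in AngII and 173 ± 173 in Ctrl mice, the estimate was the largest of the 10 in size, -1.62 (standard error 0.92, edgeR adjusted p = 0.262), and was -0.95 without Ctrl 1. Mitf differed by 0.25 (standard error 0.29, edgeR adjusted p = 0.595). In the exact 2-sided permutation test on log2 values p was between 0.257 (Mlana) and 1.0 (Oca2), where 4 mice against 4 can reach 0.0286.

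AngII+LY was compared with AngII alone to ask what the antagonist changed during infusion. Again 0 of 10 genes were called, against 0.919% of all genes tested, and 1 of 10 had an unadjusted p under 0.05, against 24.8%. That gene was Oca2 (edgeR adjusted p = 0.194), which among these 8 mice was counted in AngII 2 alone. All 8 effectors had an estimate below 0 in the count model, with a median of -1.37 beside -0.02 over all genes. On the log scale of limma the estimates of Dct, Mlana, Pmel, Slc24a5 and Slc45a2 were above 0. Without AngII 2 those of the same 5 genes and Tyrp1 were above 0 in the count model, and that of Dct went from -0.28 (standard error 1.06, edgeR adjusted p = 0.899) to 1.38. Tyr, at 30.5 ± 37.0 in AngII+LY and 119 ± 147 in AngII mice, had an estimate of -2.03 (standard error 1.18, edgeR adjusted p = 0.297). With 1 mouse left out the Tyr estimate ran from -3.01 to -0.97. Sox10 had an estimate of 1.28 (standard error 0.96, edgeR adjusted p = 0.429) and Mitf of 0.20 (standard error 0.29, edgeR adjusted p = 0.696). With 1 mouse left out the estimate ran from 0.34 to 2.16 for Sox10 and from 0.040 to 0.54 for Mitf.

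Between AngII+LY and Ctrl mice, which share these samples with the comparisons above, 0 of 10 genes were called, as were 0% of all genes tested. Here 2642 of all genes (13.8%) had an unadjusted p under 0.05, and DESeq2 called 343. None of the 10 had an unadjusted p under 0.05. All 8 effectors had an estimate below 0, with a median of -1.99 beside -0.02, and without Ctrl 1 those of Dct, Tyrp1 and Slc24a5 were above 0. Pmel came nearest, at 133 ± 112 in AngII+LY and 825 ± 1232 in Ctrl mice. Its log2 estimate was -2.57 with a standard error of 1.22 (edgeR adjusted p = 0.370, the unadjusted value being just above 0.05), and -0.65 without Ctrl 1. For Mitf the estimate was 0.45 (standard error 0.28, edgeR adjusted p = 0.5). Between LY and Ctrl mice 0 of 10 genes were called, as were 0% of all genes, and 0 of 10 had an unadjusted p under 0.05, against 2.53% of all genes. DESeq2 called 20 genes there and none of the 10. The effector estimates had a median of -0.30 beside -0.03, from -1.43 for Oca2 to 0.59 for Tyrp1. With 2 LY mice the exact test cannot go below 0.0667. For each of the 10 genes the groups overlapped in all 4 comparisons, where 15%, 11.1%, 8.16% and 12% of all genes tested had groups without overlap, in the order given. The standard errors of the effectors were between 0.64 and 3.67 on the log2 scale, so that group differences smaller than the spread between mice were not detectable with these numbers.

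**Figure D3:**
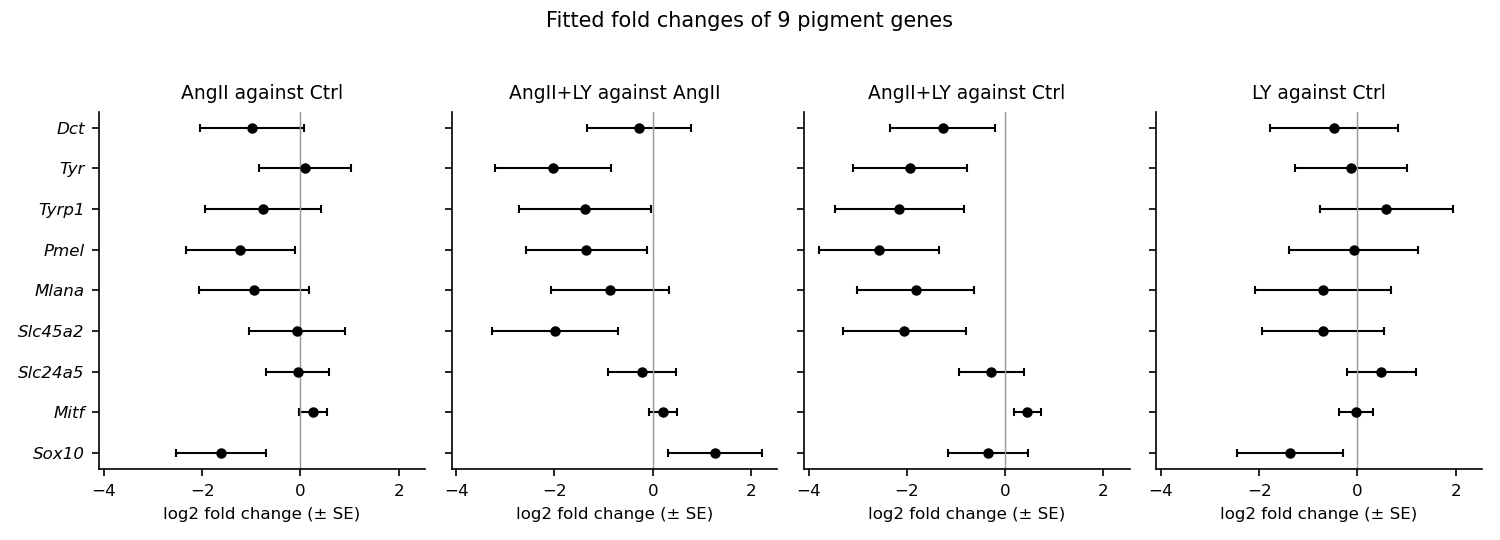
Fitted log2 fold change with 1 standard error (x axis) of 9 of the 10 genes (y axis) in the 4 comparisons; Oca2 is left out because it is at 0 in all AngII+LY mice. The effector estimates lie below 0 in both AngII+LY panels, although 5 of them were above 0 against AngII in limma, and the standard errors of the effectors other than Slc24a5 are between 0.94 and 1.39.

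The effectors rose and fell together from mouse to mouse. Over the 14 mice all 28 pairs of effectors had a positive Pearson's r of log2(normalized count + 1), from 0.22 to 0.90 with a median of 0.70, and within groups the r ran from 0.13 to 0.93. Permutation tests of all 45 pairs of the 10 genes, with Benjamini-Hochberg adjustment over the 45, gave an adjusted p under 0.05 for 21 of the 28 effector pairs by Pearson's r and 24 by Spearman's rho. The mice are shared by all pairs, which are not independent of each other. Dct and Mlana had an r of 0.90 (permutation p = 3e-05, adjusted 0.00045) and a rho of 0.89 (permutation p = 7e-05, adjusted 0.00135), with r = 0.83 without the 2 mice farthest from the median of Dct and 0.91 within groups. Tyrp1 and Pmel had an r of 0.89 (permutation p = 1e-05, the smallest that could be given, adjusted 0.00045) and a rho of 0.96 (permutation p = 1e-05, adjusted 0.00045), with r = 0.92 without the 2 farthest mice and 0.86 within groups. The lowest r was that of Tyr with Slc24a5 (0.22). With the 2 mice farthest from the median of the first gene of each pair left out, the r of the 28 pairs ran from 0.17 to 0.93 with a median of 0.69, and it was lower in 16 of them. It fell by over 1.5 times in 3 pairs, from 0.58 to 0.37 for Dct with Tyrp1, from 0.54 to 0.24 for Dct with Slc24a5 and from 0.68 to 0.44 for Oca2 with Slc24a5, which thus rest in part on those mice. For Tyrp1 with Slc45a2 it went from 0.32 to 0.74.

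Mitf, the E-box factor of the lineage, stayed apart from the effectors. Its r with the 8 effectors was between -0.43 and 0.18, and 0 of 8 pairs had an adjusted p under 0.05. Within groups the r of Mitf with the effectors ran from -0.46 to 0.49, the highest being that with Tyr. With Dct, r was 0.18 (permutation p = 0.541, adjusted 0.58) and rho 0.15 (permutation p = 0.612, adjusted 0.676), with r = 0.40 without the 2 mice farthest for Dct and 0.31 within groups. Sox10 had a positive r with all 8 effectors, from 0.28 to 0.75, and 2 of 8 pairs had an adjusted p under 0.05 by r and 5 by rho. With Dct, r was 0.75 (permutation p = 0.00126, adjusted 0.00515) and rho 0.77 (permutation p = 0.00211, adjusted 0.00678), with r = 0.75 without the 2 farthest mice and 0.78 within groups.

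**Figure D4:**
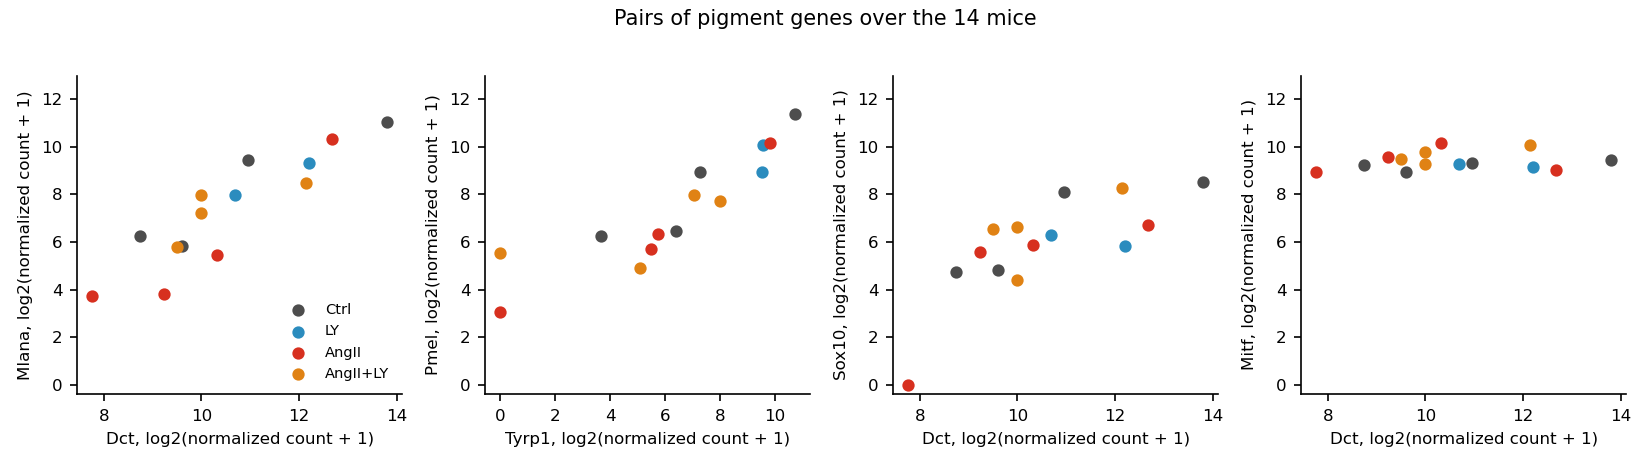
Log2(normalized count + 1) of Mlana, Sox10 and Mitf against Dct and of Pmel against Tyrp1, 1 point a mouse, coloured by group. Mlana follows Dct (r = 0.90) and Pmel follows Tyrp1 (r = 0.89), Sox10 rises with Dct (r = 0.75), and Mitf stays level (r = 0.18).

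Of 20 other pigment-cell genes, 19 could be tested. In AngII against Ctrl 1 was called higher and 0 lower, where 2.44% and 0.454% of all genes were. At an unadjusted p under 0.05, 5 were higher and 2 lower, where 15% and 12.6% of all genes were. The gene called was Edn3, the ligand of the endothelin receptor B that melanocyte precursors need. It had 55.8, 23.2, 189 and 26.5 normalized counts in AngII and 5.21, 0, 0 and 8.61 in Ctrl mice, without overlap, as for 7.46% of all genes in this direction. The estimate for Edn3 was 4.25 on the log2 scale (standard error 1.02, edgeR adjusted p = 0.0454), and the call was lost in 12 of the 17 alternatives that gave an adjusted p, which ran from 0.0244 to 0.216 over them. Edn3 was also at 96.7 and 15.7 in LY and at 60.4, 30.8, 40.3 and 91.9 in AngII+LY mice, which like AngII lay above all Ctrl mice. Kitl, the ligand of Kit, had 5673 normalized counts on average in AngII and 3101 in Ctrl mice, which overlapped (edgeR adjusted p = 0.0745). Kit, the receptor tyrosine kinase on melanocytes and mast cells, ran the other way. It had 180, 306, 440 and 456 in Ctrl, 258 and 341 in LY valves, 2.07, 153, 141 and 172 in AngII valves and 16.5, 69.8, 0 and 89.1 in AngII+LY mice, so that every mouse with AngII was below every mouse without it. For Kit the log2 estimate against Ctrl was -1.64 in AngII (standard error 0.64, edgeR adjusted p = 0.123) and -2.85 in AngII+LY (standard error 0.71, edgeR adjusted p = 0.138), which did not pass the threshold. Without overlap and lower, like Kit, were 7.56% and 4.89% of all genes in these comparisons.

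In AngII+LY against AngII, 1 of the 19 pigment-cell genes was called lower and 0 higher, where 0.507% and 0.413% of all genes were. It was Atp7a, the copper transporter that loads tyrosinase and is used in most cells, with 717, 291, 476 and 396 normalized counts in AngII+LY and 1249, 1501, 1404 and 1817 in AngII mice (log2 fold change -1.67, standard error 0.29, edgeR adjusted p = 0.0447). With other settings and mice left out its adjusted p was between 4.9e-05 and 0.154, above the threshold in 11 of 18. Against Ctrl 0 of the 19 were called in AngII+LY mice, 1 higher and 5 lower at an unadjusted p under 0.05, where 6.41% and 7.39% of all genes were. Gpnmb, a melanosomal glycoprotein also made by macrophages, had 577, 381, 343 and 681 in AngII+LY and 3977, 1318, 582 and 2181 in Ctrl mice, or -2.02 on the log2 scale (standard error 0.53, edgeR adjusted p = 0.157), and was called by DESeq2 (adjusted p = 0.0112). Gpr143, the melanosomal receptor, and Tspan10, a tetraspanin, were listed at 0 in all 4 AngII+LY mice, as was Oca2. Gpr143 had 49.5, 8.33, 0 and 33.0 normalized counts in Ctrl valves, at least 26.7-fold higher when pooled against a floor of 3 counts over the group, and at least 17.6-fold without Ctrl 1. Tspan10 had 205, 71.6, 0 and 14.4 in Ctrl valves, at least 80.8-fold higher, and at least 33.2-fold without Ctrl 1. Of AngII mice both were counted in AngII 2 alone.

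Of 20 genes for making lysosome-related organelles, which melanosomes share with most cells, all were tested. Against Ctrl, 2 were called higher in AngII and 0 lower, where 2.44% and 0.454% of all genes were. They were Ap3m1 (log2 fold change 1.08, standard error 0.27, edgeR adjusted p = 0.0484) and Bloc1s6 (0.85, standard error 0.20, edgeR adjusted p = 0.0471), subunits of the AP-3 and BLOC-1 sorting complexes. Ap3m1 had 4617, 4967, 5987 and 9754 normalized counts in AngII and 2459, 2277, 3075 and 4106 in Ctrl mice, and Bloc1s6 2875, 2511, 3237 and 4712 and 1492, 1801, 1881 and 2200.2. Both calls were lost in 12 of 18 alternatives, among them limma and the correction for GC content. The estimates were 1.06 for Ap3m1 and 0.83 for Bloc1s6 in limma, and 0.55 for each with the GC correction. In AngII+LY against AngII 0 of these 20 were called, where 0.919% of all genes were, and 0 in the other comparisons, where 0% were. Of 5 relatives of the factors (Tfeb, Tfe3, Tfec, Sox8 and Sox9) 0 were called in any comparison, beside 2.9% of all genes in AngII against Ctrl and the shares just given.

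**Figure D5:**
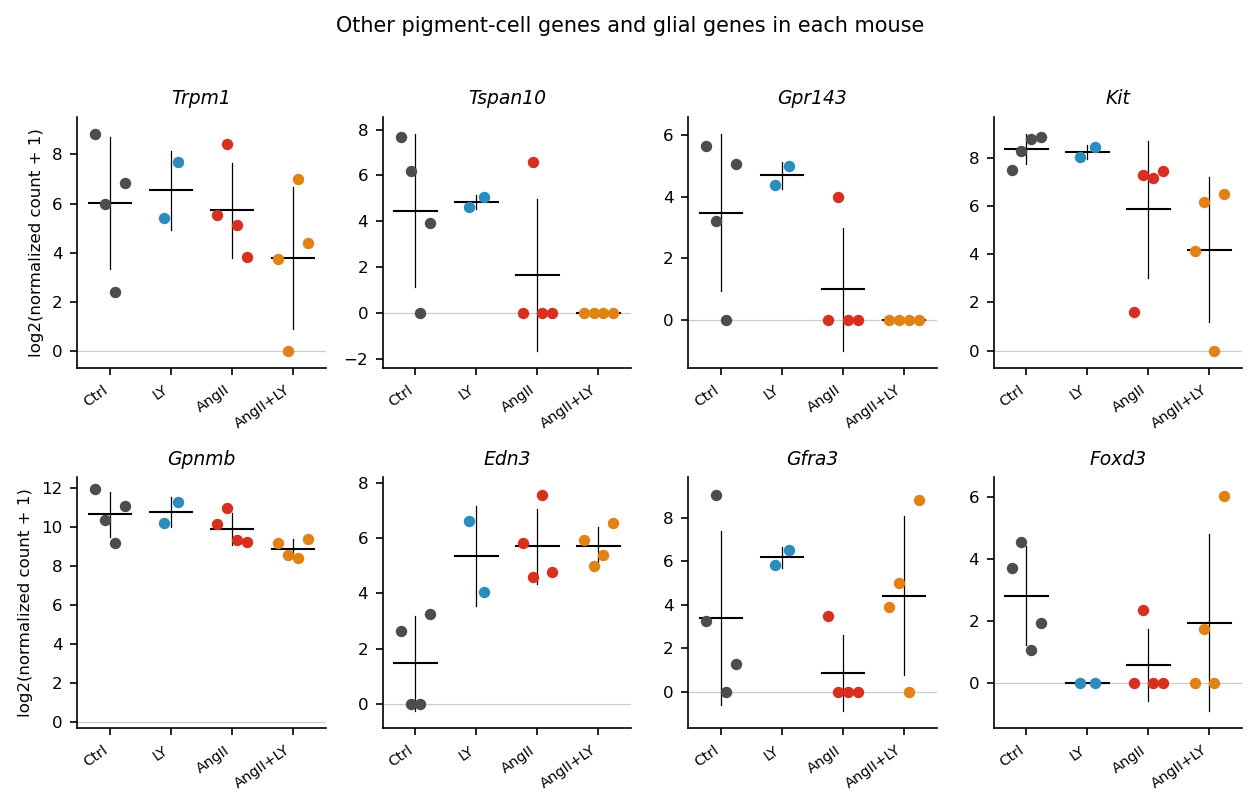
Log2(normalized count + 1) of 6 other pigment-cell genes and of the glial genes Gfra3 and Foxd3 (y axis) in each mouse, by group (x axis); horizontal bars are means and vertical bars 1 SD. Kit is lower in every AngII and AngII+LY mouse than in every other mouse, Edn3 is higher in them than in Ctrl mice, and Tspan10 and Gpr143 are at 0 in all AngII+LY mice.

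Among all genes, the 15 whose pattern over the 14 valves was most like the mean of the effectors were Ss18l1 (r = 0.90), Glb1l2 (0.88), Fzd2 (0.87), Aebp1 (0.87), Trappc14 (0.86), Gli2 (0.86), Tspan10 (0.86), Glis2 (0.85), Cd63 (0.85), Il27 (0.84), Map2k6 (0.83), Loxl1 (0.83), Fabp7 (0.82), Dok1 (0.82) and Npy1r (0.82). The likeness is Pearson's r of log2(normalized count + 1), ranked over 19135 genes. Tspan10 was on the list of pigment-cell genes and Fabp7 on the list of glial markers. The points share library, depth and scaling, and the r is given as a description. Cd63, a tetraspanin of melanosomes and other late endosomes, had 35626 normalized counts in Ctrl 1 and 13454 to 23256 in the other 13 mice. Gpr143 ranked 40th and Gpnmb 230th. The median r was 0.39 for the 19 pigment-cell genes, 0.34 for the 5 relatives of the factors, 0.32 for 11 glial markers and 0.14 for the 20 organelle genes, beside 0.07 over all genes.

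Markers of other cell types were examined in the same valves. Of the labelled tissue all 9 of 9 interstitial cell markers were counted, led by Dcn, with 298021 to 1022553 summed normalized counts a mouse. Of 14 markers of epidermis and hair follicle, 7 hair follicle keratins (Krt25, Krt27, Krt71, Krt31, Krt33a, Krt35 and Krt85) were at 0 in all 14 valves, and Krt5 was at 0 in 11. The others were counted. Krt10, with 60.3% of the summed list, and Tchh (30.8 to 414 normalized counts) were counted in all 14 valves, Krt14 in 13 (up to 802, in Ctrl 2) and Krt1 in 12. In AngII against Ctrl 1 of the 5 tested was called higher and 0 lower, where 2.44% and 0.454% of all genes were. It was Krt10, a keratin of the upper epidermis, with means (normalized counts) of 1134 in AngII valves and 418 in Ctrl valves (edgeR adjusted p = 0.0439). The groups did not overlap for Krt10, as for 7.46% of all genes in this direction. The sum of the list was 758 to 1325 in Ctrl valves, 980.5 to 1081 in LY valves, 1261 to 2395 in AngII valves and 814 to 1359 in AngII+LY valves. Of 5 markers of the pigment epithelium of the eye, Rpe65 and Rlbp1 were at 0 in all 14, while Best1, with 84.2% of the summed list, was counted in all 14 (48.8 to 205), Ttr in 13 (up to 39.2) and Lrat in 5 (up to 125). Smooth muscle markers, 4 of 4 counted in each valve and led by Acta2, moved with the effectors in the highest mouse. Their sum was 403277, 56098, 6767 and 8331 in Ctrl valves, 4698 and 7659 in LY valves, 7967, 10688, 17200 and 9152 in AngII valves, and 8653, 77284, 9122 and 68302 in AngII+LY valves. Ctrl 1 was thus highest in both sums, whereas AngII 2, second in effectors, was not set apart in smooth muscle. In AngII against Ctrl 0 of the 4 were called, and all 4 were lower at an unadjusted p under 0.05, as were 12.6% of all genes (median log2 estimate -3.53, and -0.051 over all genes tested). Without Ctrl 1 the median was -1.14 and 0 of the 4 passed that unadjusted threshold, and without Ctrl 4 it was -3.93 with 1 called. Macrophage markers, 8 of 8 counted and led by Lyz2, were also highest in Ctrl 1 (96250), with 23186 to 83958 in the other mice. The median log2 estimate of the 8 in AngII against Ctrl was -0.88. Of them 0 were called higher and 2 lower, where 2.44% and 0.454% of all genes were. The 2 called were C1qa and C1qb, subunits of complement C1q that macrophages make. C1qa had means (normalized counts) of 2011 in AngII valves and 7309 in Ctrl valves, and C1qb had 3523 and 12450 (edgeR adjusted p = 0.0439 for each). Both were without overlap, as were 7.56% of all genes in this direction. Without Ctrl 4, 4 of the 8 macrophage markers were called lower. Heart muscle markers, led by Tnnt2, were lowest in Ctrl 1 (256920), next lowest in AngII 2 (272523), and highest in AngII+LY 4 (2091206), where interstitial markers were at their lowest. Adipocyte markers, led by Fabp4, were summed at 20119 (AngII 2) to 67973 and endothelial markers, led by Pecam1, at 64667 (Ctrl 1) to 153984. Of 7 adipocyte markers 1 was called lower in AngII against Ctrl and 0 higher, where 0.454% and 2.44% of all genes were. It was Ucp1 of brown fat, with a mean of 520 against 3844 (edgeR adjusted p = 0.0439). Its groups did not overlap, as for 7.56% of all genes in this direction. At an unadjusted p under 0.05, 5 of the 7 were lower, as were 12.6% of all genes, with a median log2 estimate of -1.56. Without Ctrl 4, 3 of the 7 were called. Each of the 4 calls named here was lost in 12 of 18 alternatives, among them those without Ctrl 1, 2 or 3 and without AngII 3 or 4. Of the heart muscle, endothelial and interstitial markers 0 were called in this comparison. In AngII+LY against AngII all 8 heart muscle estimates were above 0 (median 1.49) and 8 of 9 interstitial ones below (median -0.85). Over all genes tested the median was -0.02. Against Ctrl, 7 of 8 heart muscle estimates were above 0 in AngII+LY mice (median 0.99) and 9 of 9 interstitial ones below (median -0.86). None of these was called, where 0.919% and 0% of all genes were. Over the 14 mice the log2 effector sum was set against the log2 sum of each of 10 marker lists, with permutation p-values adjusted over the 10. For smooth muscle r was 0.57 (permutation p = 0.0334, adjusted 0.138) and rho 0.48 (permutation p = 0.0834, adjusted 0.236), with r = 0.35 without Ctrl 1 and AngII+LY 2, the 2 farthest mice, and 0.75 within groups. For macrophages r was 0.61 (permutation p = 0.0223, adjusted 0.138) and rho 0.51 (permutation p = 0.0673, adjusted 0.236), with r = 0.36 without Ctrl 1 and AngII+LY 4 and 0.55 within groups. For glia r was 0.52, with 0.79 without Ctrl 3 and AngII 4 and 0.58 within groups, and for endothelium it was -0.54, with -0.20 without Ctrl 1 and AngII+LY 4 and -0.56 within groups (permutation, adjusted p = 0.138 for each). The r of the other 6 lists lay between -0.22 and 0.096, so that 0 of the 10 had an adjusted p under 0.05 by r or rho. The part of these cells in the effector, Gpnmb and Mitf values was not tested.

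For Sox10, which melanocytes and Schwann cells share, the glial markers are given beside it. Their sum, led by S100b, was 7024, 6848, 3292 and 5010 in Ctrl valves, 6754 and 6888 in LY valves, 4614, 7133, 4893 and 10562 in AngII valves, and 4266, 4186, 4204 and 8459 in AngII+LY valves. Gfra3, a receptor subunit of glial precursors, had 533 normalized counts in Ctrl 2 and 452 in AngII+LY 4, and at most 91.0 in the other 12 mice. Foxd3, a factor of neural crest and glial precursors, had 65.1 in AngII+LY 4 and 22.5 in Ctrl 2, its 2 highest values. These are 2 of the 3 valves with the highest Sox10. In Ctrl 1, the other, where the effectors were at their highest, Gfra3 was at 8.68. Foxd3 was at 12.1 there, next after those 2 valves, and at most 4.09 in the remaining mice. S100b (3665) and Fabp7 (86.8) were at their highest of the 14 valves in Ctrl 1. Mast cell markers, which come with Kit and Mitf and were led by Hdc, were summed at 2262, 2972, 1953 and 1415 in Ctrl valves, 4444 and 798 in LY valves, 1842, 2242, 1733 and 1674 in AngII valves, and 2927, 2139, 1860 and 919 in AngII+LY valves. In AngII against Ctrl 0 of the 8 were called, with 5 estimates above 0 and 3 below (0 higher and 1 lower at an unadjusted p under 0.05, where 15% and 12.6% of all genes were). Mitochondrial genes took 4.0 to 7.52% of the total in Ctrl valves, 8.62 to 9.76% in LY valves, 9.83 to 25.5% in AngII valves and 10.1 to 20.2% in AngII+LY valves. This share was higher in every mouse with AngII than in every mouse without it. It was also higher in the LY mice than in every Ctrl mouse. The part of glial cells, mast cells and the mitochondrial share in these values was not tested.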

How the data were processed

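Counts per gene of 14 libraries were analysed. The authors trimmed the reads after FastQC 0.12.1, aligned them to GRCm39 with HISAT2 and counted them with featureCounts, and they deposited raw counts: the table is named as normalized, but all its values are whole numbers. Of the counts from 1 to 9, 57.7% were even, so both mates of a pair may have been counted. Genes were matched to GENCODE vM39, where 618 genes (0.0361% of counts) had no symbol. Conditions were taken from sample titles. The treatment labels of 4 dosed mice carry other compound numbers, and the labels and the methods give different injection schedules.

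Genes averaging 10 counts or more were tested with edgeR 4.0.16 in R 4.3.3 (quasi-likelihood, not the legacy form; TMM; 1 fit of 4 groups). Genes were called where the p adjusted after Benjamini and Hochberg was under 0.05 and the log2 estimate exceeded 0.5 in size. A standard error is the estimate divided by the root of its F. Single genes were also compared by exact permutation tests on log2(normalized count + 1), and pairs of genes or of list sums by 100000 permutations. Alternatives were DESeq2 1.42.0, limma 3.58.1, DESeq2 size factors, no filter, only the groups compared, halved counts, the replicate number as a block, a loess correction for gene GC content (span 0.3), and each mouse left out. The legacy fit was tried only once the values were known. The genes, lists and tests were chosen with earlier results of these data known. The genes named are the 10 listed, members of the lists that passed a test or are described in a paragraph, and the 15 most like the effectors; Myef2, Dgka and Cdk2 were named for their overlap. The fit was tested on simulated data. Only counting error enters intervals and floors, as reads carried no molecular identifiers and need not be separate molecules. P-values measure the spread between these mice.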

Additional observations from a re-analysis of the deposited data

Results flagged for a closer look

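Single mice stood apart from the 3 others of their group in 14 of 59 tests of a gene in a group of 4, by Dixon's test at 95% on normalized counts that were not logged. The tests covered 20 genes, the 10 pigment genes and 10 of the others named above, and all 14 lay in the 29 tests of the pigment genes. Other genes with 1 mouse apart were not among the 20. Tspan10 and Gpr143 were counted in AngII 2 alone of the AngII mice, and Gfra3 had 533 in Ctrl 2 and 8.68 in the next Ctrl mouse. The count thus does not set the pigment genes apart from the other genes named. Chance passes about 1 in 20 where values are normally distributed, which these counts need not be: over all genes tested the same rule passed in 9.41% of 57269 tests. In Ctrl 1 these were Dct (14384 normalized counts, next highest 1986), Tyr (396, next 61.7), Tyrp1 (1704, next 155), Pmel (2649.7, next 487), Slc45a2 (299, next 30.0), Oca2 (56.4, next 6.66) and Slc24a5 (148, next 45.8). In AngII 2 they were Dct (6582, next 1277), Tyrp1 (910.0, next 52.9), Pmel (1130.0, next 79.4), Mlana (1274, next 43.3), Slc45a2 (238, next 36.1) and Oca2 (56.5, the other 3 at 0). In AngII+LY 4 it was Dct (4511, next 1019). All 14 were the highest of their group. Genes of 1 mouse are not independent of each other, so the 13 flags of Ctrl 1 and AngII 2 come from 2 valves.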

How the results depend on the processing

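None of the 40 member results (10 genes in 4 comparisons) passed the threshold in any of 694 alternatives, and 619 kept their direction. The count of all genes called (AngII against Ctrl 555, AngII+LY against AngII 176, AngII+LY against Ctrl 0, LY against Ctrl 0, in this order below) was 2663, 2082, 343 and 20 in DESeq2, and 295 for the second with DESeq2 size factors. It was 0, 5 and 13 for the first 3 without the filter, 0 and 0 for the first 2 with only the groups compared, 0, 336 and 4 in limma, 37 for the second with halved counts, 0, 0 and 3 with the GC correction, and 0 and 0 in the legacy fit, which was tried only once the values were known. Without 1 mouse the counts ran from 0 to 2135, from 0 to 1057 and from 0 to 3 for the first 3. The cause was not tested.

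Estimates of members turned as follows. DESeq2 gave Oca2 -0.18 and Tyr -0.14 for AngII against Ctrl, and the legacy fit -0.11 and -0.12. The GC correction gave, for AngII against Ctrl, Mitf -0.13, Slc45a2 0.0026 and Tyr -0.73, Slc24a5 0.11 for AngII+LY against AngII and Pmel 0.057 for LY against Ctrl. Limma gave Oca2 -0.73 and Tyr -2.27 for AngII against Ctrl. For AngII+LY against AngII it gave Dct 0.40, Mlana 1.52, Pmel 0.23, Slc24a5 0.54 and Slc45a2 0.39. For LY against Ctrl it gave Dct 0.66, Mlana 0.53, Oca2 0.55, Pmel 1.26 and Tyr 0.69. Oca2 in AngII+LY against Ctrl had no value with only these groups, where it missed the filter.

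With 1 mouse left out, 41 of 295 estimates turned. For AngII against Ctrl the range was -2.65 to 1.06 for Dct, -0.97 to 1.69 for Tyr, -4.12 to 1.75 for Tyrp1, -4.41 to 0.71 for Pmel, -4.89 to 0.47 for Mlana, -2.69 to 1.89 for Slc45a2, -0.038 to 0.88 for Oca2, -1.34 to 0.70 for Slc24a5 and -0.083 to 0.40 for Mitf. For AngII+LY against AngII it was -1.28 to 1.38 for Dct, -2.19 to 1.97 for Tyrp1, -1.86 to 1.84 for Pmel, -1.33 to 3.06 for Mlana, -2.40 to 0.64 for Slc45a2 and -0.59 to 1.06 for Slc24a5. For AngII+LY against Ctrl it was -2.26 to 0.78 for Dct, -2.97 to 0.35 for Tyrp1, -0.49 to 0.46 for Slc24a5 and -1.28 to 0.33 for Sox10. For LY against Ctrl it was -1.42 to 1.57 for Dct, -0.45 to 1.44 for Tyr, -0.75 to 1.84 for Pmel, -1.53 to 0.70 for Mlana, -2.59 to 1.23 for Slc45a2 and -0.12 to 0.060 for Mitf.

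No pairing of the mice by replicate number was seen: deviations from group means of same-numbered mice correlated at -0.146 to 0.106 (18 pairs), and those of other mice at -0.115 to 0.22 (54 pairs). Centring within groups of 2 or 4 mice shapes these correlations, so they cannot exclude a pairing. With the replicate block 0 and 0 genes were called for the first 2 comparisons. The block gave Dct 0.12, Mlana 0.49 and Slc24a5 0.032 for AngII+LY against AngII, Oca2 -0.018 for AngII against Ctrl, and Mitf 0.081 and Tyrp1 -0.17 for LY against Ctrl. With the block and the GC correction the calls were 0, 0 and 1 for the first 3. Estimates were then Dct 0.45, Mlana 0.70 and Slc24a5 0.37 for AngII+LY against AngII, Mitf -0.17 and Tyr -0.64 for AngII against Ctrl, and Slc24a5 -0.049 and Tyrp1 -0.21 for LY against Ctrl. Depth limits the low genes most in AngII 4, where 3 counts are 9.93 normalized counts.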
